A study of Xenopus laevis with 6 samples.

Results

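The genes described here encode enzymes and carriers of lipid, sterol and steroid metabolism in the flank of the Xenopus laevis embryo. They were chosen by name: a probe set was a member when it carried 1 gene symbol whose base matched a fixed pattern of enzyme and carrier names (cytochrome P450, hydroxysteroid dehydrogenase, acyl-CoA oxidase and dehydrogenase, thiolase, elongase, desaturase, apolipoprotein, fatty acid binding protein, LDL receptor and sterol synthesis names), with cyp26a1 left out. This gave 56 of the 15491 probe sets that are not array controls, for 48 of the 7531 gene symbols on the array. The suffixes .L and .S mark homeologs, the paired gene copies that X. laevis keeps since its genome doubled, and each copy is counted on its own. The name pattern also took in 3 probe sets of genes that are not lipid enzymes or carriers, apobec2.L (a relative of the RNA-editing cytidine deaminases) and phyhipl.S (a relative of a protein that binds phytanoyl-CoA hydroxylase), and 1 gene whose role is not given here, phyhdlb.L.

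RNA came from explants of the pronephric region, flank tissue with the early kidney rudiment, taken from stage 24 embryos whose genotype the labels do not give. One group of 3 pools was untreated and the other 3 pools were treated with bhh (banded hedgehog, a secreted ligand of the hedgehog family), whose dose, time and way of supply the labels do not give. Each pool held 300 explants of about 70 by 100 by 70 µm from both flanks, and each was measured on its own 1-colour Affymetrix array. No mock-treated group is named, so a response to bhh and an effect of the treatment procedure cannot be told apart, and the labels do not say whether the pools came from separate clutches, so p-values measure the spread between these pools.

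Lipid metabolism meets hedgehog signalling at known points. Hedgehog ligands carry a covalently bound cholesterol, sterols bind the transducer Smoothened, and loss of the last enzymes of cholesterol synthesis impairs the pathway in vertebrates. Fatty acid oxidation is best known from muscle and kidney tubules, which draw much of their energy from it. Apolipoproteins carry lipids between tissues, and the yolk of a frog embryo supplies lipid to every cell.

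The ligand's gene is named ihh.S here. It had signals of 36, 14.3 and 17.8 on the untreated arrays and 3121, 2957 and 2824 on the treated arrays. It was at least 78.9-fold higher with bhh (limma adjusted p = 6.9e-07). Whether this transcript was supplied with the treatment or made from the explants' own gene was not tested. The array medians lay between 149.9 and 170.6 and the trimmed means were all 500.1. Kidney rudiment, muscle and lateral plate markers differed between the groups. Of 7 tested pronephros markers, 3 fell (fxyd2.S, mecom.L and lhx1.L) and 1 rose (osr1.L). The others, wt1.L (log2 fold change -0.606), pax2.L (-0.546) and pax8.L (-0.326), did not pass in either fit. The summed signal of all 7 pronephros markers, which includes the 3 that fell, was 1643 to 1968 on untreated and 480 to 566 on treated arrays. Of 12 tested somite and skeletal muscle markers, 2 fell and none rose (8 and 1 with the array number as a block), 10 lay below 0, and their summed signal was 91499 to 105457 against 61498 to 80499. Of 5 tested lateral plate markers, 2 rose (foxf1.L and hand1.L), with a summed signal of 1888 to 2239 against 3974 to 4019. No tested marker of epidermis (8), neural tissue and neural crest (7) or notochord and floor plate (3) passed without the block. With it foxi1.L of epidermis and tubb2b.S of neural tissue fell. The summed signal of the neural and neural crest list was 2198 to 2394 against 1849 to 2057. In it, tubb2b.S alone read 1545, 1649 and 1438 untreated and 1050, 1269 and 1140 treated. The list did not fall as a set: its median log2 fold change was 0.002, and 3 of its 7 tested markers lay below 0. Over all tested probe sets 0.74% rose and 0.637% fell, or 3.65% and 2.66% with the block. In pooled tissue, fewer cells of a type and less RNA per cell cannot be told apart, and the part of these cell types in the results on lipid genes was not tested.

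Most of the measured lipid genes did not pass the test. Of the 56 member probe sets, 35 (29 gene symbols) were bright enough to be tested, and 3 passed: cyp17a1.L, a steroid-synthesis enzyme gene, rose 2.37-fold at 1 of its probe sets, phyhdlb.L rose 2.31-fold, and apoe.L, the gene of apolipoprotein E, fell 1.74-fold. The remaining 32 did not pass the test, limma on log2 signals with p-values adjusted by the Benjamini-Hochberg method over all 11618 tested probe sets at a threshold of 0.05. The 2 higher members were 5.71% of those tested, beside 0.74% of all tested probe sets, and the 1 lower member was 2.86%, beside 0.637%. These 2 higher members were phyhdlb.L, whose role is not given here, and cyp17a1.L at 1 of its probe sets. Arrays of both groups carry numbers 1 to 3, whose meaning the labels do not give. Same-numbered arrays shared deviations from their group mean (correlations of 0.407, 0.178 and 0.298), so the fit was also made with the array number as a block. Numbers 2 and 3 crossed gave 0.173 and 0.147, so the pairing of these arrays is not settled. Calls made only with the block depend on it. The blocked fit called 5 members: the same 3, acadm.L and fabp3.S, both lower. There, 2 higher members (5.71%) stood beside 3.65% of all tested probe sets, and 3 lower members (8.57%) beside 2.66%.

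The tested members as a group leaned slightly down. The median log2 fold change was -0.12 over the 35 probe sets, against 0.00 over all tested probe sets. Of the member probe sets 62.9% lay below 0, against 49.5% of all tested probe sets. The 35 stand for 29 gene symbols, and hmgcs1.L, hsd17b10.L and apobec2.L each lay below 0 at more than 1 probe set. All 3 probe sets matched by letters only were below 0 as well, so these shares do not count separate lipid genes. All 3 treated arrays lay above all 3 untreated arrays for 3 members, or 8.57%, beside 9.3% of all tested probe sets. All 3 treated arrays lay below for 6 members, or 17.1%, beside 9.01%. At an unadjusted p under 0.05, 3 members were higher and 7 lower, which is 8.57% and 20.0% of the members beside 6.4% and 5.81% of all tested probe sets. The 2 large increases, cyp17a1.L and phyhdlb.L, stood apart from the rest of the list, whose log2 fold changes lay between -0.80 and 0.54.

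**Figure D1:**
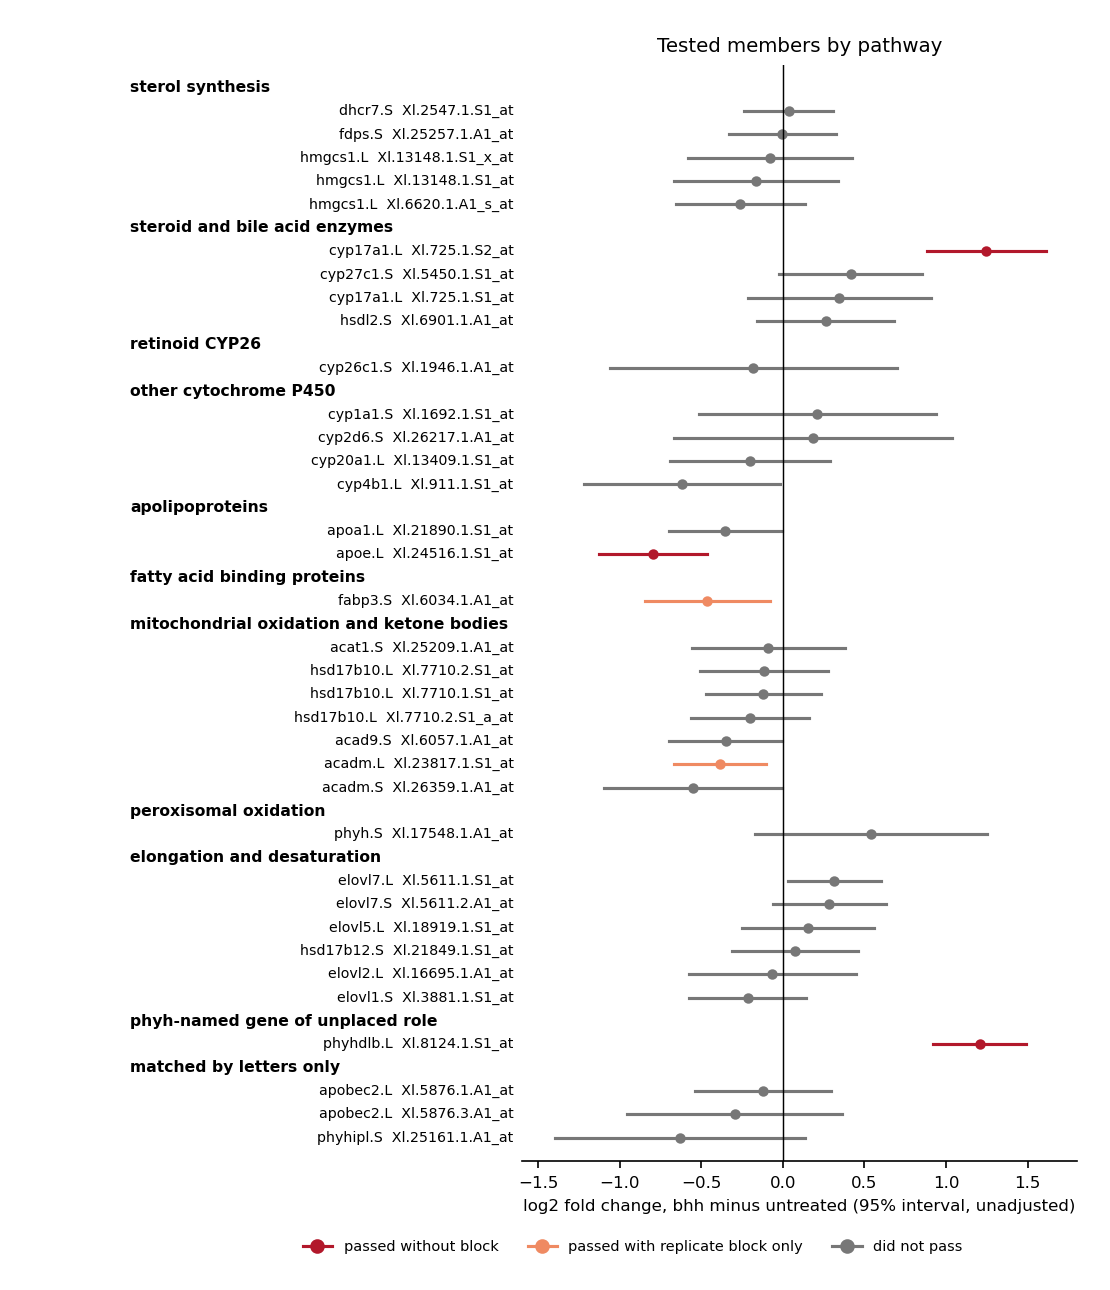
Log2 fold change of bhh-treated against untreated explants for the 35 tested member probe sets, grouped by pathway, with unadjusted 95% intervals as lines. The 3 members that passed without a block are phyhdlb.L (1.21), cyp17a1.L at its S2 probe set (1.25) and apoe.L (-0.80); acadm.L and fabp3.S passed once the replicate block was added.

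The genes of cholesterol synthesis showed no call in either direction. Of 6 probe sets, 5 were tested and none passed in either fit (none at an unadjusted p under 0.05), with log2 fold changes between -0.26 and 0.04. dhcr7.S encodes the reductase of the last step to cholesterol. It read 2741, 2252 and 2497 without bhh and 2565, 2491 and 2602 with it. The groups overlapped, the log2 fold change was 0.04 ± 0.12 (SE), and its 95% interval ran from -0.24 to 0.31. For fdps.S, which makes the farnesyl diphosphate that feeds sterols and protein prenylation, the signals were 341, 397 and 433 untreated and 371, 394 and 399 treated. Its log2 fold change was 0.00 ± 0.15, with an interval from -0.33 to 0.32.

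hmgcs1.L, whose enzyme makes the substrate of the mevalonate pathway, was covered by 3 probe sets. The brightest read 173, 163 and 199 without bhh and 142, 144 and 161 with it, so that the groups did not overlap (log2 fold change -0.26 ± 0.18, limma adjusted p = 0.615). The next read 178, 143 and 140 without bhh and 194, 116 and 134 with it (-0.08 ± 0.23), and the dimmest 100.2, 162 and 123 against 128, 104 and 107 (-0.16 ± 0.23). Both of these overlapped between groups. cyp51a1.L, the lanosterol demethylase gene, was too dim to be tested, at 5.5 to 20.5 on the 6 arrays. Among other genes of this pathway, 9 symbols of sterol partners and regulators were on the array and 5 were tested. None passed in either fit, and their median log2 fold change was -0.03. npc2.S, which carries cholesterol out of lysosomes, had -0.15 ± 0.14 and scap.S, which escorts the sterol-sensing transcription factors, had 0.24 ± 0.24.

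Steroid enzymes held the largest increase of the list. cyp17a1.L encodes the steroid hydroxylase and lyase that turns progestogens into androgen precursors. At its S2 probe set the untreated arrays 1, 2 and 3 read 343, 382 and 411, and their treated counterparts 719, 1055 and 950. Every treated array lay above every untreated one, and the log2 fold change was 1.25 ± 0.17 (SE, limma adjusted p = 0.0036). The differences between same-numbered arrays were 1.07, 1.47 and 1.21, and the call held with the block (adjusted p = 7.7e-06) and without each array in turn, with an adjusted p of 0.028 at most.

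The second probe set of cyp17a1.L, S1, did not show this. Its signals were 153, 118 and 80.9 untreated and 159, 122 and 155 treated, with overlapping groups and a log2 fold change of 0.35 ± 0.25 (limma adjusted p = 0.641). On arrays 1 and 2 the treated signal differed from the untreated one by 0.06 and 0.05 on the log2 scale, and on array 3 by 0.94. The log2 ratio of the S2 to the S1 signal was 1.17, 1.70 and 2.34 in untreated explants and 2.18, 3.11 and 2.62 in treated ones, with overlap between the groups (difference 0.90, exact two-sided permutation p = 0.2, where 0.1 is the smallest that 3 against 3 arrays allow). Between same-numbered arrays that ratio was higher with bhh by 1.01, 1.42 and 0.27, all of 1 sign, with no test made on these pairs. The rise of cyp17a1.L was measured at 1 of its probe sets.

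The other 2 genes tested in the steroid and bile acid group, cyp27c1.S and hsdl2.S, were placed there by name. Both had values above 0 and did not pass. cyp27c1.S encodes an enzyme that in zebrafish converts vitamin A to its dehydro form. It had signals of 283, 205 and 174 untreated and 310, 265 and 291 treated (log2 fold change 0.42 ± 0.20, limma adjusted p = 0.437), and treated array 2 lay below untreated array 1. hsdl2.S, a hydroxysteroid dehydrogenase-like gene, had 167, 243 and 208 untreated and 279, 230 and 228 treated, with overlapping groups (0.26 ± 0.19). cyp19a1.L (aromatase, which makes estrogens) and hsd3b7.L (an enzyme of bile acid synthesis) were too dim to be tested, with signals of 2.9 to 17.9 and 16.5 to 32.9. Of 16 steroid partner genes on the array, 12 were tested and none passed in either fit, with a median of 0.00. The largest differences by p were cyb5b.S, an electron donor gene (-0.53 ± 0.23), and fdxr.L, which supplies electrons to mitochondrial P450 enzymes (0.30 ± 0.20). The homeolog cyb5b.L went the other way (0.14 ± 0.34).

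**Figure D2:**
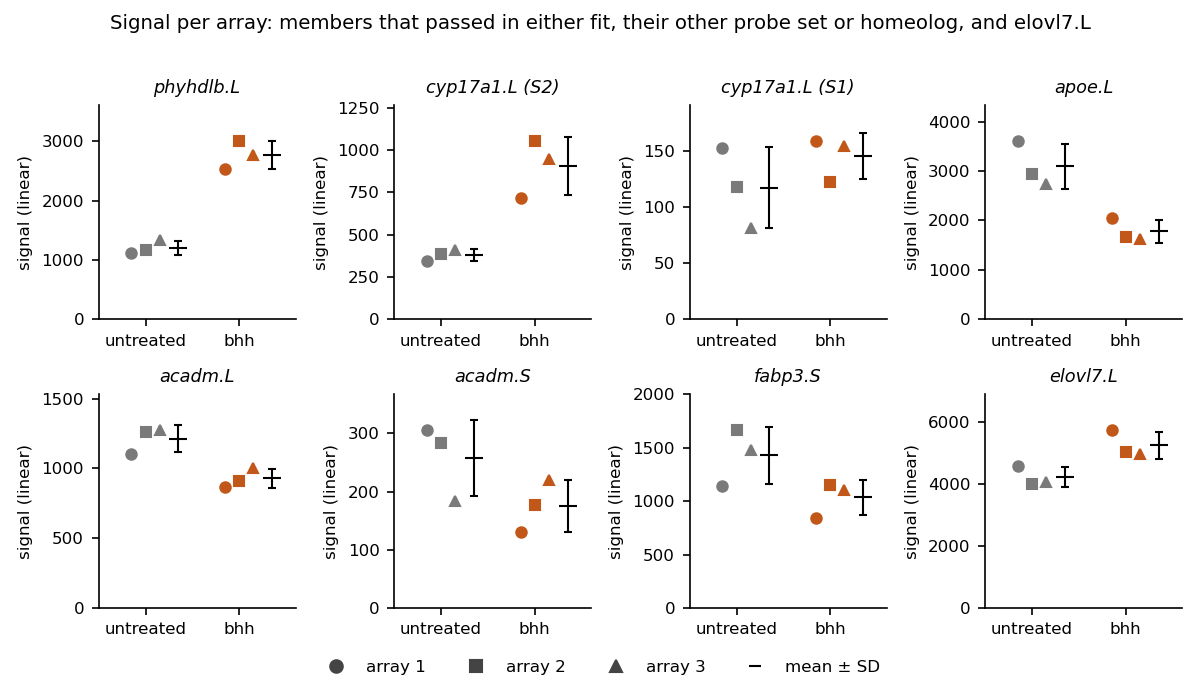
Signal on a linear axis from 0 for each of the 6 arrays (grey untreated, orange bhh-treated; circle, square and triangle are arrays 1, 2 and 3), with group mean ± SD in black. phyhdlb.L and the S2 probe set of cyp17a1.L lie higher on every treated array, elovl7.L lies higher without passing, apoe.L and acadm.L lie lower on every treated array, and fabp3.S, acadm.S and the S1 probe set of cyp17a1.L overlap between groups.

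Other cytochrome P450 genes were mostly near the limit of measurement. Of 11 probe sets, 4 were tested and none passed in either fit, and 1 had an unadjusted p under 0.05. That was cyp4b1.L, of a family that oxidises fatty acids and foreign compounds, with 73.8, 76.4 and 97.9 untreated and 40.8, 71.7 and 52.3 treated. Its groups did not overlap, and its log2 fold change was -0.62 ± 0.27 (limma adjusted p = 0.396). cyp20a1.L, of no settled substrate, had 146, 242 and 168 untreated and 137, 160.0 and 180 treated (-0.20 ± 0.22). cyp1a1.S, of a family induced by aromatic compounds, had 27.1, 58.4 and 54.5 untreated and 48.7, 57.7 and 47.6 treated (0.21 ± 0.33). cyp2d6.S had 58.9, 54.1 and 37.1 untreated and 90.4, 63.2 and 30.5 treated (0.19 ± 0.39). All 3 overlapped between the groups. The 7 untested P450 probe sets ranged from 3.7 to 59.4. The retinoic acid hydroxylase gene cyp26c1.S had 137, 41.2 and 51.1 untreated and 63.4, 61.7 and 50.8 treated. Its log2 fold change of -0.18 ± 0.40 rested on untreated array 1 and was 0.35 without it.

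Of 5 apolipoprotein probe sets 2 were tested, and 1 fell, beside 0.637% of all tested probe sets. Apolipoprotein E is the ligand by which receptors of the LDL receptor family take up lipoproteins, and apoe.L held the clearest decrease of the list. Untreated arrays 1, 2 and 3 read 3611, 2929 and 2734 and their treated counterparts 2047, 1665 and 1618, so every treated array lay below every untreated array. It fell by 0.80 on the log2 scale (SE 0.15, limma adjusted p = 0.026). The differences between same-numbered arrays were -0.82, -0.82 and -0.76, and the blocked fit gave an adjusted p of 7.6e-05. Without the block the call depended on single arrays: leaving out untreated array 1, 2 or 3 gave an adjusted p of 0.061, 0.112 or 0.055, and leaving out treated array 2 or 3 gave 0.15 or 0.127, while the log2 fold change stayed between -0.90 and -0.68.

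apoa1.L encodes the main protein of high-density lipoprotein. It had 326, 325 and 283 untreated and 264, 223 and 246 treated. These groups did not overlap, but the log2 fold change of -0.35 ± 0.16 did not pass (limma adjusted p = 0.4, blocked 0.171). Its homeolog apoa1.S was dim, with 64.6, 60.1 and 37.5 untreated and 35.4, 24.4 and 33.2 treated. The treated mean lay below the level that bacterial and tag control probe sets reach (37.6, their 95th percentile), so apoa1.S was at least 1.4-fold lower and was not tested. Both probe sets of apob.S, the gene of the structural protein of low-density lipoprotein, lay below the control level on all arrays, at 0.4 to 19.3.

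Of the other lipoprotein genes, 12 symbols were on the array and 3 were tested, 1 of which passed. Without the block, 0.74% of all tested probe sets rose and 0.637% fell. lrp1.S, a large endocytic receptor gene of the LDL receptor family that binds apolipoprotein E, rose, with 188, 163 and 266 untreated and 368, 410 and 461 treated. The log2 fold change was 1.03 ± 0.20 (limma adjusted p = 0.032), and it did not pass once untreated array 1 (adjusted p = 0.069) or 2 (0.161), or treated array 2 (0.144) or 3 (0.156), was left out. a2m.S, a protease inhibitor gene, had 0.28 ± 0.13. The 9 untested symbols, among them the liver genes ttr.L, fgb.L, fga.L and vtn.L, were all below the control level in both groups. Of 9 tested markers of gut endoderm and liver, gata5.S rose. With the block 4 rose, gata5.S, gata5.L (adjusted p = 0.0056), gata6.L (0.012) and gata6.S (0.026), and hnf4a.S fell (0.0075). The 4 that rose are all copies of gata5 and gata6, which also count as lateral plate factors, and their tissue of origin was not tested. With the block, 3.65% of all tested probe sets rose and 2.66% fell. The gut endoderm and liver list had summed signals of 5016 to 5605 untreated and 6097 to 6761 treated. The median log2 fold change of its 9 tested symbols was 0.469, and 2 of them, hnf4a.S and darmin.L, lay below 0. darmin.L had 1930, 1785 and 1579 untreated and 1686, 1749 and 1799 treated (-0.012 ± 0.125, limma adjusted p = 0.979). Of the list's 19 symbols on the array, 7 were below the control level in both groups. Of 13 tested blood and endothelium markers, fli1.S fell. With the block 3 rose, aplnr.L (adjusted p = 7.2e-04), aplnr.S (0.015) and hba3.L (0.019), and 2 fell, fli1.S and cebpa.S (0.03). The summed signals of that list were 2672 to 3098 untreated and 3382 to 3786 treated. Their part in the apoe.L result was not tested.

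The tested mitochondrial members, grouped under fatty acid oxidation and ketone body turnover, lay below 0 by small amounts. Of 9 probe sets, 7 were tested, for 5 gene symbols, because hsd17b10.L was covered more than once. Each had a log2 fold change below 0, with a median of -0.20. None passed without the block and 1 fell with it, beside 2.66% of all tested probe sets. Values below 0 were also found for other genes of this pathway, on a list of its shuttle, oxidation and electron transfer genes. Of 13 symbols on the array, 11 were tested, and each lay below 0, with a median of -0.35, beside 49.5% and 0.00 over all tested probe sets, and none passed in either fit. The count below 0 was 6 of 7 member probe sets without treated array 3. It was 10 of 11 partners when untreated array 2 or 3 or treated array 1 was left out. Genes of 1 pathway vary together, so these counts are not independent observations.

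Among the members, acadm encodes the medium-chain acyl-CoA dehydrogenase, which opens the oxidation of medium-chain fatty acids. acadm.L read 1104, 1261 and 1278 without bhh and 866, 914 and 1005 with it, and the groups did not overlap. The log2 fold change was -0.39 ± 0.13, with a limma adjusted p of 0.237 (blocked 0.040), and same-numbered differences of -0.35, -0.47 and -0.35. Its homeolog acadm.S was more scattered, with 306, 284 and 184 untreated and 131, 177 and 219 treated. Its log2 fold change was -0.55 ± 0.25 (adjusted p = 0.403, or 0.147 with the block), and the same-numbered difference was 0.26 for array number 3. The log2 ratio of the homeologs did not separate the groups (difference -0.17, exact two-sided permutation p = 0.7).

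acad9.S, an acyl-CoA dehydrogenase relative that in mammals helps to assemble respiratory complex I, had 449, 442 and 371 untreated and 349, 287 and 355 treated. The groups did not overlap (log2 fold change -0.35 ± 0.16, limma adjusted p = 0.401). hsd17b10.L, a mitochondrial dehydrogenase gene of isoleucine and steroid breakdown, had 3 probe sets at -0.12, -0.20 and -0.12. The one at -0.20 had 379, 307 and 291 untreated and 281, 260 and 306 treated, and all 3 overlapped between groups. acat1.S, the thiolase gene of ketone body turnover, had 179, 192 and 214 untreated and 235, 184 and 141 treated (-0.09 ± 0.21). The partners with the smallest p were hadhb.S, the thiolase subunit of the trifunctional protein (-0.38 ± 0.13, blocked adjusted p = 0.060), and eci2.L, an isomerase of unsaturated fatty acid breakdown (-0.44 ± 0.15, blocked adjusted p = 0.069). The long-chain enzyme gene acadl.L and acad10.L were too dim to be tested, at 11.7 to 47.2.

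The gene of the heart and muscle type fatty acid binding protein leaned the same way. fabp3.S read 1141, 1669 and 1483 on untreated arrays 1, 2 and 3, against 845, 1155 and 1106 with bhh. The groups overlapped, since untreated array 1 lay below treated array 2, but each treated array lay below the untreated array of its number, by 0.43, 0.53 and 0.42 on the log2 scale. The log2 fold change of -0.46 ± 0.17 did not pass without the block (limma adjusted p = 0.315) and did with it (0.013). Somite and skeletal muscle markers were lower beside fabp3.S and the mitochondrial genes. With the block, 8 of 12 tested markers were lower and 1 (myod1.S) higher, beside 2.66% and 3.65% of all tested probe sets. Of the muscle markers on the array, myh6.S alone lay below the control level in both groups. The myosin heavy chain gene myh8.L had -0.84 ± 0.12 (adjusted p = 0.0043) and the muscle creatine kinase gene ckm.L -0.74 ± 0.16 (0.053, or 1.6e-04 with the block). Their part in the fabp3.S and mitochondrial values was not tested. The intestinal form, fabp2.L, was below the control level on all arrays, at 5.1 to 36.3.

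In peroxisomes, 1 of 2 members was tested. phyh.S, the phytanoyl-CoA hydroxylase gene, which starts the breakdown of branched phytanic acid, had 49.6, 82.2 and 78.6 untreated and 62.9, 134 and 117 treated. The groups overlapped, and the log2 fold change was 0.54 ± 0.32 (limma adjusted p = 0.55), with a 95% interval from -0.17 to 1.25. acox2.L, a branched-chain acyl-CoA oxidase gene, was untested at 24.9 to 59.9. With the block, 2.66% of all tested probe sets fell. Of 6 tested peroxisome partners, none passed without it and 2 fell with it. These were scp2.L, the gene of a thiolase and sterol carrier of peroxisomes (245, 313 and 276 untreated, 154, 163 and 207 treated, log2 fold change -0.68 ± 0.18, adjusted p = 0.141, or 0.019 with the block), and pex19.S, which brings membrane proteins to peroxisomes (-0.54 ± 0.16, 0.164, or 0.039 with the block). The homeolog pex19.L had -0.29 ± 0.29 and did not pass in either fit.

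No gene of fatty acid elongation and desaturation passed the test. Of 10 probe sets, 6 were tested, none passing in either fit, with a median of 0.12, and 1 had an unadjusted p under 0.05. This was elovl7.L, an elongase gene for long-chain fatty acids, with 4580, 3994 and 4053 untreated and 5746, 5021 and 4956 treated. Every treated array lay above every untreated one, and the same-numbered differences were 0.33, 0.33 and 0.29. The log2 fold change was 0.32 ± 0.13, with a limma adjusted p of 0.364 (blocked 0.060). Its homeolog elovl7.S had 3462, 2634 and 3751 untreated and 4459, 3694 and 3755 treated, with overlapping groups (0.28 ± 0.16). The homeologs' log2 ratio differed by -0.03 between the groups (exact two-sided permutation p = 0.9).

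The other tested elongation genes showed no separation. elovl1.S, for saturated very long chains, had 1176, 1363 and 1507 untreated and 1358, 935 and 1215 treated (log2 fold change -0.22 ± 0.16). elovl5.L, for polyunsaturated chains, had 172, 152 and 146 untreated and 153, 174 and 195 treated (0.15 ± 0.18). elovl2.L and hsd17b12.S, the reductase of the elongation cycle, had -0.07 ± 0.23 and 0.08 ± 0.18. The desaturase genes fads2.S, scd.L and scd.S, which place double bonds into fatty acids, were untested. The first scd.S probe set had 46.2, 50.5 and 48.2 untreated and 26.2, 16.6 and 27.2 treated, at least 1.28-fold lower, while its other probe set overlapped, with 58.7, 43.7 and 39.5 against 27.6, 40.3 and 43.8.

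Among 14 tested genes of fatty acid synthesis and activation, 1 rose, beside 0.74% of all tested probe sets. lpin2.S, the gene of a phosphatidate phosphatase of triglyceride and phospholipid synthesis, had 316, 337 and 350 untreated and 526, 530 and 603 treated. The log2 fold change was 0.73 ± 0.14 (limma adjusted p = 0.030), but it passed without treated array 1 alone, and leaving out any other array gave an adjusted p of 0.061 to 0.197. acly.S, which makes cytosolic acetyl-CoA, had -0.43 ± 0.16 (adjusted p = 0.323, blocked 0.056). Across the list the median was -0.06. With the block, 2.66% of all tested probe sets fell. Of 9 tested nuclear receptors of lipid metabolism, none passed without it and 1 fell with it. That was hnf4a.S, a receptor gene of liver, gut and kidney, with 91.8, 221 and 184 untreated and 50.4, 109 and 93.0 treated. Its groups overlapped, and its log2 fold change was -0.96 ± 0.36 (adjusted p = 0.32, or 0.0075 with the block).

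**Figure D3:**
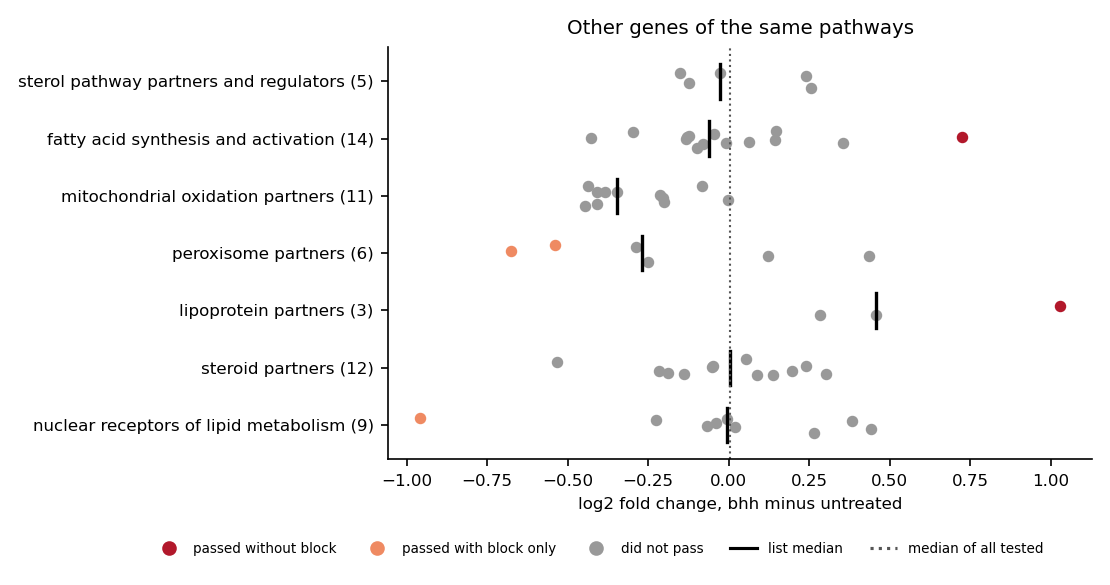
Log2 fold change of other genes of the same pathways, 1 point per gene symbol at its brightest probe set, with the number tested in brackets, the list median as a black line and the median of all tested probe sets as a dotted line. The 11 mitochondrial oxidation partners all lie below 0 (median -0.35) without a call, and lpin2.S (0.73) and lrp1.S (1.03) passed without a block.

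phyhdlb.L had the smallest p of all members. The annotation gives this symbol, with no role that is stated here, and its match to the name pattern rests on the letters of phytanoyl-CoA hydroxylase. Its signal was 1112, 1165 and 1329 without bhh and 2527, 3010 and 2777 with it. Every treated array lay above every untreated one, with same-numbered differences of 1.18, 1.37 and 1.06. The log2 fold change was 1.21 ± 0.13 (limma adjusted p = 9.9e-04, or 1.4e-06 with the block), and it passed without each array in turn, with an adjusted p of 0.012 at most. The genes matched by letters alone had 3 tested probe sets and none passed in either fit. The brighter apobec2.L probe set had 465, 441 and 705 untreated and 429, 501 and 521 treated (-0.12 ± 0.19), and the dimmer 59.6, 81.0 and 46.5 against 37.3, 54.4 and 59.8 (-0.30 ± 0.30). phyhipl.S had 108, 51.9 and 46.0 untreated and 51.7, 36.3 and 36.8 treated (-0.63 ± 0.35), so that untreated array 1 stood above the other 5. All 3 overlapped between groups.

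The 21 untested members had signals of 0.4 to 64.6. Of all 56 member probe sets, 37 had both group means at or above the control level, 7 had 1 group mean above it and 12 had neither. All 3 treated arrays lay below all 3 untreated arrays for 2 of the 21, the probe sets of apoa1.S and scd.S given above. That share was 9.01% over all tested probe sets and was not counted over the untested ones. The 12 that lay under the control level in both groups include aromatase, apolipoprotein B, lanosterol demethylase, the intestinal fatty acid binding protein and several P450 genes, so no difference was measurable there.

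**Figure D4:**
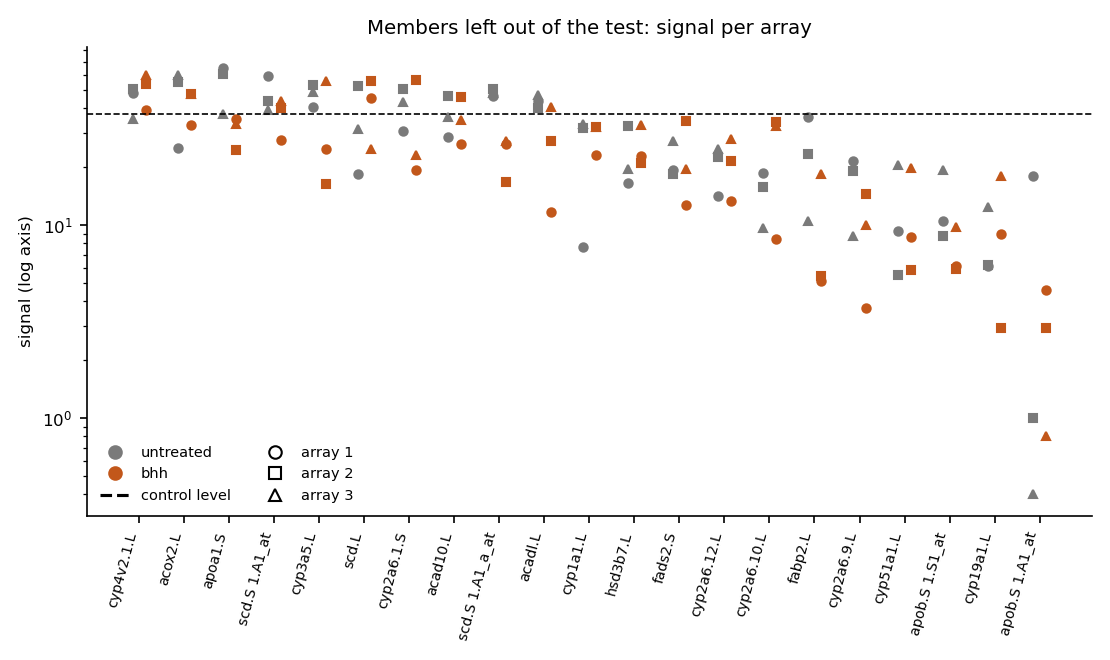
Signal of the 21 untested member probe sets on a logarithmic axis, 6 arrays each (grey untreated, orange bhh-treated), with the control level of 37.6 as a dashed line. Values run from 0.4 to 64.6, and most probe sets scatter across or under the line in both groups.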

How the data were processed

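The deposited table of 6 arrays holds linear intensity values, 1 per probe set and array. Per the submitters' processing notes the authors used MAS5, version and settings not given in the sources used here. Per the labels' protocols, 1 µg of total RNA was amplified into biotinylated cRNA. MAS5 takes mismatch probes as background, which makes dim signals noisy, and it rescales each array. Of 15611 probe sets, 120 controls were left out. The platform's table named 1 gene for 9304 probe sets, more than 1 for 195 and no gene for 5992. Of the single names, 9227 were matched through gene identifiers to RefSeq (Xenopus_laevis_v10.1, names only), and the member rule gave the same 56 probe sets with the older symbols. No detection calls were used.

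The test was limma's moderated test (version 3.58.1, R 4.3.3; lmFit and eBayes with a trend; two-sided) on log2 signals of 11618 probe sets, without the dimmest 25% by mean. Errors of fold changes are SE with n = 3, and the small number of arrays limits the precision. The method was tested on simulated data, with 100 probe sets changed by 1 and 100 by 2 on the log2 scale. It recovered 55% of the changes of 1 and 91% of those of 2, with 2.01% false among its calls. A member that did not pass may therefore still differ. The simulated noise was independent between arrays and lacked the deviations that same-numbered arrays share. The false share may thus not carry over to these arrays, and no change under 1 was simulated. Folds are ratios of geometric means; where a group's mean lay under 37.6, the 95th percentile of 44 bacterial and tag controls, signals below it were set to it and the fold is given as "at least". Arrays of the same number shared deviations from their group mean (correlations of 0.407, 0.178 and 0.298). Each exceeds 0.1, so the blocked value is printed beside a member, a related gene or a marker list used here where it changes a call. Numbers 2 and 3 crossed gave 0.173 and 0.147, also over 0.1. At most 0.245% of values were identical between 2 arrays.

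Members, pathway groups and lists were chosen with earlier results of these data known. All members are accounted for; per-array values were given for members past an adjusted p of 0.05 in either fit, up to 4 with the smallest p and the brightest of each pathway, and other probe sets or homeologs of those past the threshold; from related lists, genes past the threshold and up to 2 by smallest p. Values of scd.S, apoa1.S, fdps.S, acat1.S, elovl2.L, hsd17b12.S and the other hsd17b10.L probe sets, the homeologs cyb5b.L and pex19.L, and the marker genes named, were added after their values were seen. Alternatives were quantile normalization, a common median, offsets of 16 and 32, dim signals set to 37.6, no filter or a 50% filter, eBayes without trend, array weights, the block, the brightest probe set per symbol and leaving out each array.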

Additional observations from a re-analysis of the deposited data

How the results depend on the processing

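The replicate block raised the count of called members from 3 to 5, and the count of lower members from 1 to 3. Lower members were 0 with eBayes without trend (apoe.L, adjusted p = 0.1) and 2 with array weights (acadm.L added), and 0 to 1 when 1 array was left out, since apoe.L passed only without treated array 1. The 2 higher members, phyhdlb.L and the S2 probe set of cyp17a1.L, were called in all 17 settings run for them, with log2 fold changes of 1.14 to 1.28 and 1.13 to 1.41. The block changed no other call of a member. Quantile normalization, a common median, both offsets, the control-level floor, no filter and the 50% filter left the same 3 members called, and with the brightest probe set per symbol the counts were again 2 higher and 1 lower. Of the 35 tested members, 12 had a log2 fold change whose sign turned when 1 array was left out. None of the 12 was called in any of these settings, and the cause was not tested. They ranged from -0.327 to 0.020 and from -0.290 to 0.078 for the dimmest and the middle hmgcs1.L probe set (the latter also 0.034 without untreated array 1), from -0.355 to 0.009 for cyp20a1.L, from -0.142 to 0.412 for cyp1a1.S, from -0.522 to 0.347 for cyp26c1.S (0.11 with array weights), from -0.036 to 0.106 for dhcr7.S, from -0.161 to 0.623 for cyp2d6.S (also -0.015 without untreated array 3) and from -0.248 to 0.090 for the brighter apobec2.L probe set. For the 4 outside the naming rule, run after seeing the data, they ranged from -0.238 to 0.219 for elovl2.L (0.134 with array weights), from -0.068 to 0.197 for hsd17b12.S (also -0.042 without untreated array 2), from -0.271 to 0.1 for acat1.S and from -0.096 to 0.075 for fdps.S (also 0.012 without untreated array 2 and 0.029 without treated array 1). Over all tested probe sets, 86 higher and 74 lower calls became 424 and 309 with the block, 368 and 289 with array weights, 49 and 46 with eBayes without trend, and 33 to 115 and 26 to 71 without 1 array. Alternatives for genes of the related lists were added after seeing the data: lpin2.S and lrp1.S lost their calls with eBayes without trend (adjusted p = 0.071 and 0.073). With array weights, 2 of the 11 tested mitochondrial oxidation partners fell, beside 289 of all 11618 tested probe sets. No partner on that list passed in the other settings. With 3 arrays per group, differences the size of the mitochondrial ones (median -0.20) lay near the spread between arrays, and signals under 37.6 carry no usable difference.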
